A study of Mus musculus with 4 samples.

Results

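The subject is a set of 35 genes of fatty acid synthesis, elongation, desaturation, activation, binding and oxidation. Some PPAR-responsive genes and PPAR receptors were set apart. The members were listed by name, by their step in metabolism, and matched to the deposited table through the gene symbols of GENCODE M21. Of the 35, 33 had a row among the 21523 gene identifiers, and Elovl7 and Pdk4 were not analysed here. The cells were RAW264.7, an immortal mouse line with macrophage properties. The tested cultures received 0.5 mM 1,5-anhydroglucitol (1,5-AG) for 24 h, and the control cultures received no treatment. 1,5-AG is a sugar alcohol that resembles glucose but has no hydroxyl group on its first carbon. Each group had 2 libraries, the cells of all 4 were grown in serum-supplemented DMEM, and the labels give neither a vehicle nor a culture time for the controls. The labels do not say whether the 2 libraries of a group came from separate cultures, so each p-value reflects library-to-library spread alone, and that spread could be technical.

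Fatty acids are built in the cytosol from malonyl-CoA, lengthened and desaturated in the endoplasmic reticulum, and burned by beta-oxidation in mitochondria after acylcarnitines carry them across the inner membrane. Malonyl-CoA links the opposing routes, since it is the building block of synthesis and an inhibitor of the carnitine step that admits fatty acids to oxidation. PPAR receptors are nuclear receptors that bind fatty acids and, with RXR partners, activate genes of fatty acid uptake, storage and oxidation. In macrophages these pathways supply membrane lipids, polyunsaturated precursors of eicosanoids, and fuel.

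The scale of the FPKM values (fragments per kilobase of exon, scaled to the library's total) corresponded to 14616556 and 15112965 fragments in the 1,5-AG libraries and 15163808 and 16228674 in the control libraries. At these depths, for an exon length of 2 kb, 3 fragments give 0.0993 to 0.103 FPKM with 1,5-AG and 0.0924 to 0.0989 FPKM in control, a floor for counting error only. All 7 macrophage markers had a row, and Cd68 was at 472 and 479 FPKM with 1,5-AG and at 500 and 498 FPKM in control. Mrc1, the only marker of this list below 1 FPKM, had 0.129 and 0.125 FPKM with 1,5-AG and 0.269 and 0.232 FPKM in control. Summed over the list, macrophage markers came to 3760 to 3843 FPKM with 1,5-AG and 5228 to 5354 FPKM in control, and Lyz2, which fell with 1,5-AG (adjusted p = 0.0169), held most of that sum. The osteoclast markers, 4 of 5 with a row, summed to 38.9 to 40.1 FPKM with 1,5-AG and 56.2 to 58.1 FPKM in control, mostly from Ctsk. Their part in the results below was not tested. Of the 10 adipocyte markers, 3 are members here, and the other 3 with a row summed to 0.0838 to 0.242 FPKM with 1,5-AG and 0.0913 to 0.231 FPKM in control. In bulk RNA, fewer cells of a kind and less RNA per cell cannot be told apart.

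The members spanned a wide range of levels per length of exon. Scd2, a stearoyl-CoA desaturase, was the most abundant, with 411 and 436 FPKM in the 1,5-AG libraries and 368 and 371 FPKM in the control libraries, which was 31.2% and 32.8% of the summed member FPKM with 1,5-AG and 28.5% and 28.7% in control. Fads2, Lpl, Etfa and Fads1 followed, with means over the 4 libraries of 115, 90.5, 85.3 and 78.5 FPKM. In all, 29 of the 33 members averaged at least 1 FPKM, the level required for testing. The 4 under it were Acacb, Fabp4, Etfb and Pparg, and the lowest of the 29 were Ppard and Angptl4, at 3.20 and 3.23 FPKM.

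**Figure D1:**
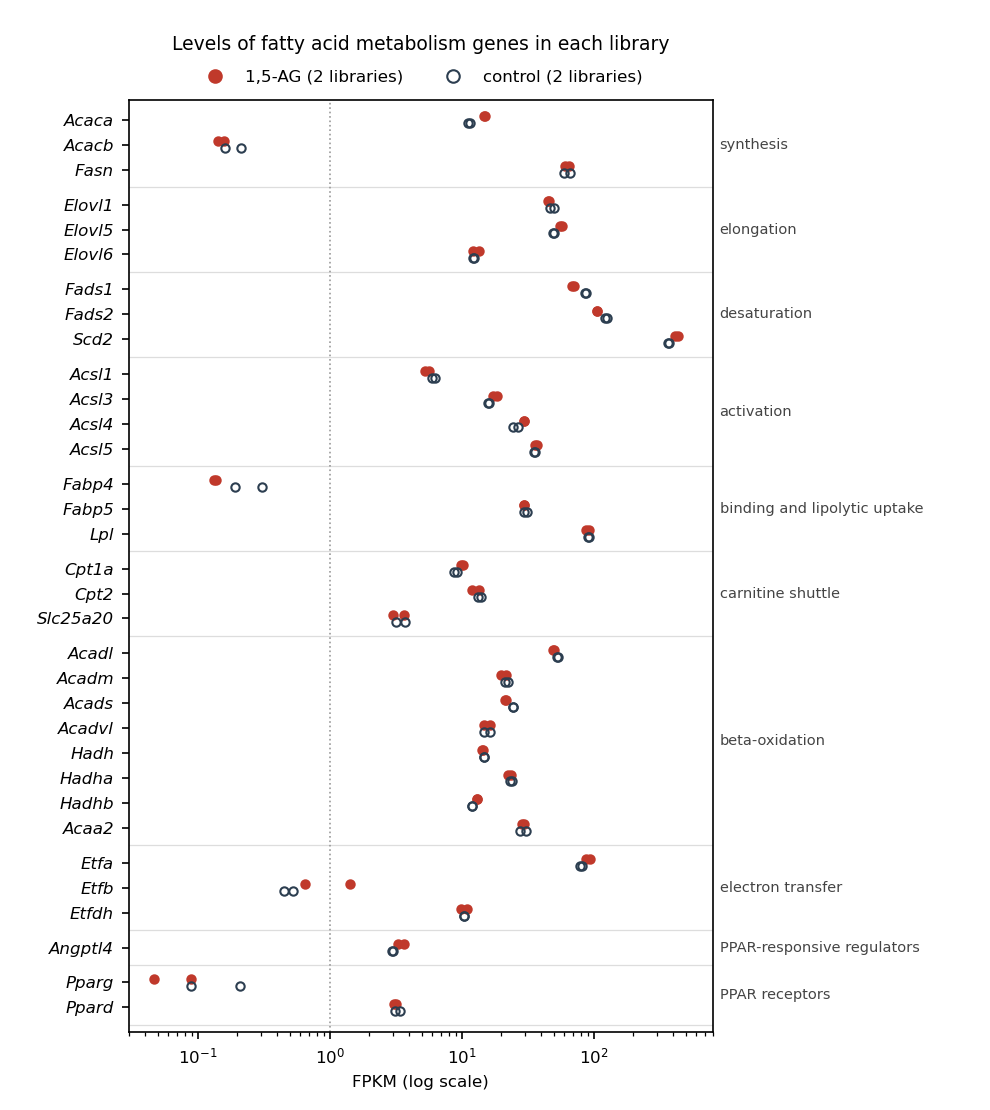
FPKM on a log axis for the 33 members in each library, ordered by step, with 1,5-AG as filled points above control as open points, and the dotted line at the testing minimum of 1 FPKM. Most members lie between 3 and 100 FPKM with small gaps between groups, Scd2 lies above 360 FPKM in every library, and Acacb, Fabp4 and Pparg lie below 0.4 FPKM.

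Of the 29 members tested, Acaca rose and Fads1 fell with 1,5-AG at an adjusted p of 0.05 in limma, and the other 27 did not pass. Among all 11120 genes tested, 1.46% passed, 0.809% higher and 0.647% lower. At an unadjusted p under 0.05, 12 members differed, 8 higher and 4 lower, against 18.2% of all tested genes (9.15% higher and 9.04% lower). The 1,5-AG libraries lay entirely above the control libraries in 9 members and entirely below them in 7, against 24.2% and 25.4% of all tested genes (49.6% in either direction), and in 13 members the groups overlapped. The median log2 difference of the members was -0.01, with 12 positive and 17 negative, beside -0.0025 over all tested genes. Their median absolute difference was 0.10, beside 0.08 over all tested genes. When the test was run on fragments recovered from the FPKM (voom), 5 members were higher (Acaca, Elovl5, Scd2, Acsl4 and Etfa) and 2 lower (Fads1 and Fads2), where 8.29% of all genes passed, 3.65% higher and 4.64% lower. With 1 library left out of the voom fit, an alternative chosen after seeing the data, the differences of these members kept their sign. The log2 differences were 0.36 to 0.41 for Acaca, -0.34 to -0.29 for Fads1 and -0.26 to -0.19 for Fads2. Scd2 ranged from 0.15 to 0.24, Elovl5 from 0.15 to 0.21, Acsl4 from 0.16 to 0.27 and Etfa from 0.12 to 0.22. The calls of Scd2, Elovl5, Acsl4 and Etfa were lost in some of these fits. A call kept in them is not a stricter check, because the adjusted p was smaller in some than with all 4 libraries. The share of all genes passing in these fits was not computed. Over protein coding genes alone, Acaca and Scd2 were higher and Fads1 and Fads2 lower, where 4.36% of genes passed, 1.73% higher and 2.64% lower.

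**Figure D2:**
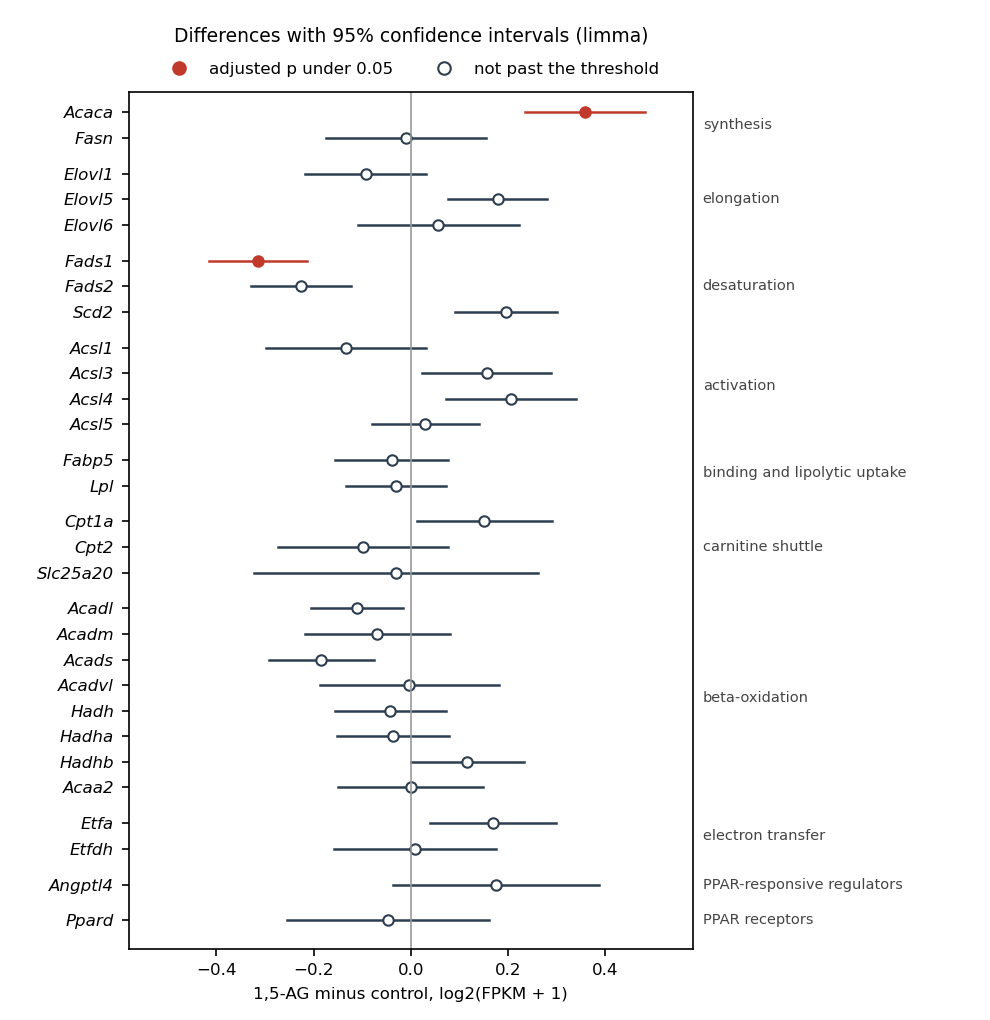
Difference of each of the 29 tested members, as 1,5-AG minus control in log2(FPKM + 1) units, with limma's 95% confidence interval as a line and filled points for an adjusted p under 0.05. Acaca at 0.36 and Fads1 at -0.31 are the filled points, and the remaining members lie between -0.23 and 0.21.

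Acaca (ENSMUSG00000020532, chromosome 11, 84129672 to 84401651 on the plus strand, mm10) encodes acetyl-CoA carboxylase 1, which makes the malonyl-CoA used for fatty acid synthesis. It had 15.03 and 14.8 FPKM in the 1,5-AG libraries and 11.2 and 11.6 FPKM in the control libraries. The groups did not overlap, and the gap between them was several times the gap within either. The mean was 30.6% higher with 1,5-AG, a log2 difference of 0.36 (SE 0.05, 95% interval 0.24 to 0.48, adjusted p = 0.0461). The call lay close to the threshold and was lost when any library was left out, with adjusted p at 0.198 and 0.170 on dropping 1,5-AG replicate 1 or 2, and at 0.160 and 0.148 on dropping control replicate 1 or 2, while the difference stayed between 0.33 and 0.38. Over all 17 alternatives the adjusted p ranged from 6.10e-06 to 0.198.

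Fasn encodes fatty acid synthase, the enzyme that assembles palmitate from malonyl-CoA. It had 64.6 and 60.5 FPKM with 1,5-AG and 66.3 and 59.9 FPKM in control, so the groups overlapped. Its log2 difference was -0.01 (95% interval -0.17 to 0.15, adjusted p = 0.955), and its sign changed with the processing. Acacb, the mitochondrial-membrane form of acetyl-CoA carboxylase, was represented by 20 and 23 fragments with 1,5-AG and by 31 and 25 in control, and was under the testing minimum. At 0.142 and 0.158 FPKM with 1,5-AG and 0.212 and 0.160 FPKM in control, it lay far below Acaca per length of exon in every library.

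The start-site windows of these cytosolic enzymes are shown because Acaca moved and Fasn, the next enzyme of the same route, did not pass the test. They come from RefSeq on build GRCm38.p6 and run from 250 bases before to 50 bases after a start, and both genes are on chromosome 11. The Acaca window at chr11:84195188-84195487, plus strand, belongs to a start 65766 bp downstream of the GENCODE gene start, so it is an internal start of the gene. The Fasn window lies at chr11:120824498-120824797 on the minus strand, and capitals mark CCAAT boxes (the NF-Y box, read on either strand). The Acaca window is in lower case throughout because it holds none of the motifs searched.
Acaca: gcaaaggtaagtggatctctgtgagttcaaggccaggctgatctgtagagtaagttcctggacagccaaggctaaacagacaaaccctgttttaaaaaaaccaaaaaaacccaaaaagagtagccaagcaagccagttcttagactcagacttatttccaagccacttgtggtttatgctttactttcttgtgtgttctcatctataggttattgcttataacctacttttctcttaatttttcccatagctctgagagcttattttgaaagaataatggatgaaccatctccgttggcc
Fasn: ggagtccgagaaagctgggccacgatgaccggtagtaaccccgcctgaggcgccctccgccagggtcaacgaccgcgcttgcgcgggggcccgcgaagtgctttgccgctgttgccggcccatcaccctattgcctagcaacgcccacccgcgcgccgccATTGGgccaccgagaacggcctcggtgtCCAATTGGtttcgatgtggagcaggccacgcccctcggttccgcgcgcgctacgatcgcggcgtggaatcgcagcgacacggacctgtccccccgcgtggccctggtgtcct
The gene-level FPKM does not say which start of Acaca was used in these cells. The searched motifs were CCAAT, the E-box CACGTG, the sterol regulatory element TCACNCCAC, and AGGNCA repeated with 1 or 4 bases between the copies, all on both strands. Windows were found for 28 of the 35 members, and Acaa2, Angptl4, Fabp4, Fabp5, Fads1, Lpl and Scd2 were not matched. CCAAT was in 16 of 32 member windows, or 50%, against 37.4% of all 32851 windows. The spaced-by-1 repeat, of the kind that PPAR with RXR binds, was in the window of Elovl1 alone (0.381% of all windows), and the spaced-by-4 repeat was in 0 member windows (0.253% of all windows). The sterol regulatory element was found in the window of Acsl1 alone (1.24% of all windows), and the E-box in that of Elovl5 alone (7.15% of all windows).

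Fads1 (ENSMUSG00000010663) encodes the desaturase that makes arachidonic acid, the precursor of prostaglandins and leukotrienes. It fell to 71.2 and 68.6 FPKM in the 1,5-AG libraries, against 88.2 and 86.1 FPKM in the control libraries. Every 1,5-AG value lay below every control value. The mean was lower by a log2 difference of -0.31 (SE 0.04, 95% interval -0.42 to -0.21, adjusted p = 0.0425). As for Acaca, the call was lost without any single library, with adjusted p at 0.150 and 0.170 on dropping 1,5-AG replicate 1 or 2, and at 0.146 and 0.141 on dropping control replicate 1 or 2. The difference stayed between -0.34 and -0.29 in those fits, and over all 17 alternatives the adjusted p ranged from 1.82e-05 to 0.170.

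Fads2 encodes the desaturase that acts first on the dietary precursors linoleic and alpha-linolenic acid, upstream of Fads1. It had 107 and 105 FPKM with 1,5-AG and 127 and 121 FPKM in control, and the groups did not overlap. Its log2 difference was -0.23 (SE 0.04, 95% interval -0.33 to -0.12) and did not pass in limma (adjusted p = 0.0803). It passed with voom (adjusted p = 8.42e-04), over protein coding genes alone (adjusted p = 0.0256) and among genes with a mean of at least 5 FPKM (adjusted p = 0.0416). Fads1 lies on the plus strand of chromosome 19 (10182888 to 10196877, mm10) and Fads2 on the minus strand (10062765 to 10101746), so they point away from each other, with gene starts 81.1 kb apart. Exons of other annotated genes overlap neither of them. The Fads2 window, chr19:10101454-10101753 on the minus strand, is given because the gene lay lower beside its neighbour. Its start site lies 243 bp inside the GENCODE gene, and it holds none of the motifs searched.
Fads2: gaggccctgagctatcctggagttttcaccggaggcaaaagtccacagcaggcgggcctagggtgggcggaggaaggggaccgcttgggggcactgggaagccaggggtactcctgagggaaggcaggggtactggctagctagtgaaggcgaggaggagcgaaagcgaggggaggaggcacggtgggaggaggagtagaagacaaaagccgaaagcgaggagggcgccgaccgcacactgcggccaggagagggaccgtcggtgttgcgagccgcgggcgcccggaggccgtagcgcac

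Scd2 and its relative Scd1 convert saturated acyl-CoA to monounsaturated acyl-CoA, a branch separate from the polyunsaturated route of Fads1 and Fads2. Scd2, whose values are given above, had non-overlapping groups and a log2 difference of 0.20 (SE 0.04, 95% interval 0.09 to 0.30), which did not pass in limma (adjusted p = 0.103). It passed with voom (adjusted p = 2.50e-04) and over protein coding genes alone (adjusted p = 0.0391). Scd1, a known LXR target and no member here, had 70.1 and 73.8 FPKM with 1,5-AG and 51.5 and 51.4 FPKM in control, and rose (log2 difference 0.48, adjusted p = 0.0221). Its call too was lost without each library in turn, with adjusted p at 0.0999 and 0.105 on dropping 1,5-AG replicate 1 or 2, and at 0.0972 and 0.109 on dropping control replicate 1 or 2. Scd1 and Scd2 thus lay higher, and Fads1 and Fads2 lower, in both 1,5-AG libraries than in either control library. The groups were likewise apart in 49.6% of all tested genes. Of these 4 Scd and Fads genes, Scd1 and Fads1 passed in limma. Their relatives Scd3, Scd4, Fads3 and Fads6 overlapped between groups, and among them only Fads6 was abundant enough to test (log2 difference 0.05, adjusted p = 0.807). The difference between the routes of Scd and Fads genes was not tested. Scd1 and Scd2 are close in sequence, and how fragments matching both were counted is not given, so the split between them is uncertain.

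**Figure D3:**
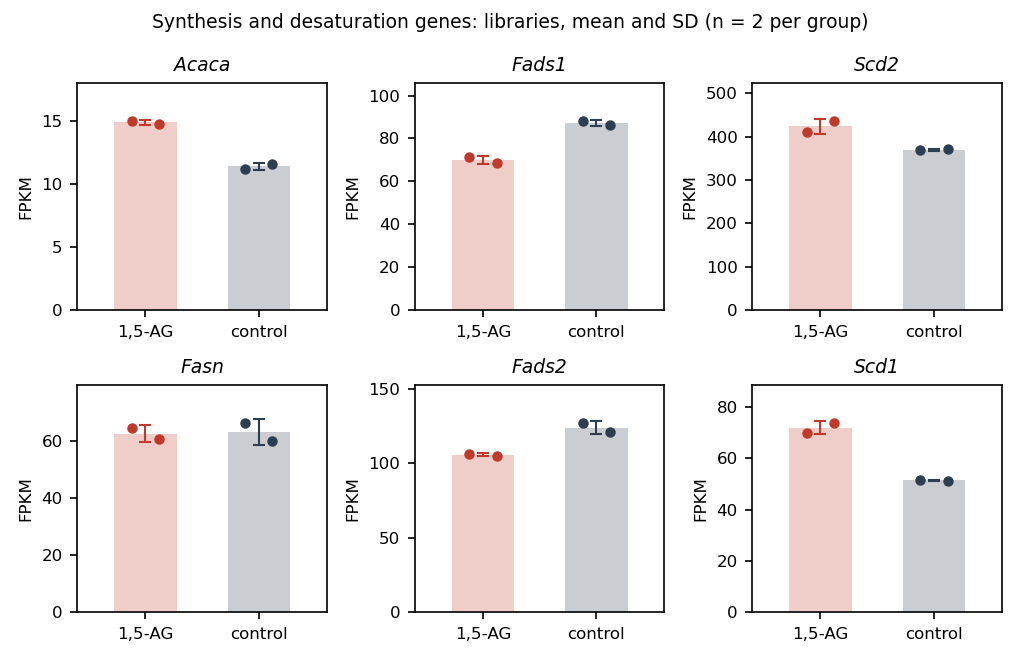
FPKM of the members Acaca, Fasn, Fads1, Fads2 and Scd2, and of Scd1, in 1,5-AG (left) and control (right) cells; points are libraries, bars are means and error bars SD (n = 2 per group), on axes from 0. Acaca, Scd1 and Scd2 lie higher with 1,5-AG in both libraries, Fads1 and Fads2 lie lower in both, and the points of Fasn overlap between groups.

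Among the elongases, which add carbon pairs to acyl-CoA, none of the 3 tested passed in limma. Elovl5, which lengthens polyunsaturated fatty acids, had 57.5 and 55.3 FPKM with 1,5-AG and 49.7 and 49.7 FPKM in control. The groups were apart, and the log2 difference of 0.18 (95% interval 0.08 to 0.28, adjusted p = 0.115) passed with voom (adjusted p = 0.0158). It was also the elongase with an unadjusted p under 0.05. Elovl1, which makes very long saturated and monounsaturated chains, had 45.9 and 44.9 FPKM with 1,5-AG and 46.8 and 50.1 FPKM in control (log2 difference -0.09, 95% interval -0.22 to 0.03). Elovl6, which lengthens palmitate to stearate, overlapped between groups, with 13.6 and 12.2 FPKM with 1,5-AG and 12.2 and 12.5 FPKM in control (0.06, 95% interval -0.11 to 0.22).

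Acyl-CoA synthetases attach fatty acids to coenzyme A and so trap and activate them. None of the 4 passed in limma, 2 were higher at an unadjusted p under 0.05, and 1 was higher with voom. That gene was Acsl4, the form that prefers arachidonic acid, with 29.8 and 29.5 FPKM in 1,5-AG cells and 24.6 and 26.6 FPKM in control cells. Its groups did not overlap, with a log2 difference of 0.21 (95% interval 0.07 to 0.34, adjusted p = 0.141, with voom 0.0118). Acsl3, a form found on the endoplasmic reticulum and lipid droplets, had 17.3 and 18.5 FPKM with 1,5-AG and 15.8 and 16.1 FPKM in control (0.16, adjusted p = 0.216). Acsl1 lay on the other side, with 5.63 and 5.30 FPKM with 1,5-AG and 6.25 and 5.93 FPKM in control (-0.13, adjusted p = 0.362). Acsl5 overlapped between groups, at 37.1 and 35.8 FPKM with 1,5-AG and 35.2 and 36.2 FPKM in control (0.03, 95% interval -0.08 to 0.14).

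Lipoprotein lipase, encoded by Lpl, releases fatty acids from lipoprotein triglyceride outside the cell, and FABP proteins carry them within it. Lpl had 87.4 and 91.7 FPKM in 1,5-AG cells and 91.4 and 91.6 FPKM in control cells, so the groups overlapped. Its difference of -0.03 had a 95% interval of -0.13 to 0.07. Fabp5, the epidermal-type fatty acid binding protein that macrophages also express, had 29.8 and 29.6 FPKM with 1,5-AG and 29.8 and 31.4 FPKM in control (-0.04, 95% interval -0.15 to 0.08). Neither passed in limma or voom, or at an unadjusted p under 0.05. Fabp4, the adipocyte and macrophage form, was scarce, with 9 and 9 fragments with 1,5-AG and 21 and 14 in control, or 0.133 to 0.137 FPKM and 0.192 to 0.309 FPKM over its 4489 bp of merged exon. It was under the testing minimum.

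Cpt1a encodes the malonyl-CoA-sensitive carnitine palmitoyltransferase of the outer mitochondrial membrane. It had 10.3 and 9.84 FPKM with 1,5-AG and 9.15 and 8.80 FPKM in control. The groups did not overlap, but the log2 difference of 0.15 (95% interval 0.01 to 0.29) did not pass (adjusted p = 0.243, with voom 0.109). Cpt2, its partner on the inner membrane, had 12.02 and 13.4 FPKM with 1,5-AG and 14.01 and 13.4 FPKM in control (-0.10, 95% interval -0.27 to 0.08). Slc25a20, the carrier that exchanges acylcarnitine for carnitine between them, had 3.67 and 3.02 FPKM with 1,5-AG and 3.16 and 3.71 FPKM in control (-0.03, 95% interval -0.32 to 0.26). Thus 0 of 3 genes of the shuttle passed in limma or voom, and Cpt1a was the gene with an unadjusted p under 0.05.

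The 8 genes of the mitochondrial beta-oxidation spiral summed to 187 and 187 FPKM in the 1,5-AG libraries and to 195 and 195 FPKM in the control libraries. None passed in limma or voom, 1 was higher and 2 lower at an unadjusted p under 0.05, and 7 of 8 differences were negative, beside 5656 of 11120 over all tested genes, with a median of -0.04 beside -0.0025. Of the negative differences, those of Acadvl and Acaa2 were near 0, at -0.0037 and -0.00046, and changed sign in some settings. Acyl-CoA dehydrogenases open each turn of the spiral on chains of different length. Acads, the short-chain form, had 21.7 and 21.2 FPKM with 1,5-AG and 24.6 and 24.4 FPKM in control. These did not overlap, with a log2 difference of -0.18 (95% interval -0.29 to -0.08, adjusted p = 0.120, with voom 0.0965). Acadl, the long-chain form, had 49.7 and 49.2 FPKM with 1,5-AG and 54.0 and 53.0 FPKM in control (-0.11, adjusted p = 0.219). The groups of Acadm, the medium-chain form, overlapped, with 20.04 and 21.7 FPKM with 1,5-AG and 21.4 and 22.5 FPKM in control (-0.07, 95% interval -0.22 to 0.08). Acadvl, the very-long-chain form, had 16.3 and 14.8 FPKM with 1,5-AG and 16.4 and 14.9 FPKM in control (-0.0037, 95% interval -0.19 to 0.18). Exons of Dvl2 on the opposite strand cover 42.9% of the exon bases of Acadvl, and since the strand setting of the counting is not given, its value is uncertain.

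Hadha and Hadhb encode the subunits of the trifunctional protein, which completes the spiral for long chains. Hadhb had 13.02 and 12.99 FPKM in 1,5-AG cells and 11.93 and 11.91 FPKM in control cells, with no overlap and a log2 difference of 0.12 (adjusted p = 0.274). Hadha overlapped, at 22.6 and 23.5 FPKM with 1,5-AG and 24.0 and 23.4 FPKM in control (-0.04, 95% interval -0.15 to 0.08). The genes are divergent neighbours on chromosome 5, with starts 86 bp apart, so a single window covers both. The RefSeq window of Hadhb, chr5:30155003-30155302 on the plus strand of GRCm38.p6, is shown with the bases between the GENCODE gene starts in capitals. It holds none of the motifs searched.
Hadhb: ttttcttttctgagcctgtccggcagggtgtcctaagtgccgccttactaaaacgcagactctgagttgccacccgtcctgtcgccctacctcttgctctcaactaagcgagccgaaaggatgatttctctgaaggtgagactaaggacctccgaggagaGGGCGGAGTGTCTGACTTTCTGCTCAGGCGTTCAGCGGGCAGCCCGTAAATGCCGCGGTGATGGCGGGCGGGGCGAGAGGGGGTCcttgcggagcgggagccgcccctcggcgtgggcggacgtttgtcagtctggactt
Hadh, the dehydrogenase for shorter hydroxyacyl chains, had 14.6 and 14.3 FPKM with 1,5-AG and 14.9 and 14.9 FPKM in control (-0.04, 95% interval -0.16 to 0.07). Acaa2, the thiolase that releases acetyl-CoA, had 28.7 and 29.7 FPKM with 1,5-AG and 27.9 and 30.6 FPKM in control (-0.00046, 95% interval -0.15 to 0.15). Neither difference passed, and the groups of Acaa2 overlapped.

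Electrons from the acyl-CoA dehydrogenases pass through the flavoprotein of Etfa and Etfb to the ubiquinone reductase encoded by Etfdh. Etfa had 93.5 and 87.2 FPKM in 1,5-AG cells and 78.3 and 82.1 FPKM in control cells. The groups did not overlap, and the log2 difference of 0.17 (95% interval 0.04 to 0.30) did not pass in limma (adjusted p = 0.182) but did with voom (adjusted p = 0.0450). Etfdh had 9.93 and 11.1 FPKM with 1,5-AG and 10.3 and 10.5 FPKM in control, which overlapped (0.0086, 95% interval -0.16 to 0.18). Etfb was listed at 0.647 and 1.42 FPKM with 1,5-AG and 0.453 and 0.529 FPKM in control, from 11 and 25 fragments with 1,5-AG and 8 and 10 in control. It was under the testing minimum and far below Etfa, its partner subunit. Of its exon bases, 58.2% are shared on the same strand with other annotated genes, Gm45233 and Mir7051. How fragments from shared exons were assigned is not given, so the level of Etfb is uncertain.

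Of the members set apart as PPAR-responsive regulators and PPAR receptors, Angptl4 and Ppard were abundant enough to test, and neither passed. Members of uptake and oxidation, processes whose genes PPAR receptors also activate, are given by step above. Angptl4 thus does not stand for all PPAR targets among the members. Cd36, a known PPAR target of macrophages that was listed with fatty acid transport, rose and is described with the wider set. Angptl4, a secreted inhibitor of lipoprotein lipase and a sensitive PPAR target, had 3.30 and 3.68 FPKM with 1,5-AG and 2.94 and 3.01 FPKM in control. The groups did not overlap, but the log2 difference of 0.17 had a 95% interval of -0.04 to 0.39 (adjusted p = 0.354, with voom 0.362). Ppard, the receptor expressed in most tissues, had 3.19 and 3.08 FPKM with 1,5-AG and 3.12 and 3.43 FPKM in control, which overlapped (-0.05, 95% interval -0.25 to 0.16). Pparg, the receptor that directs fat cell formation and also acts in macrophages, was near the limit of detection. It had 2 and 4 fragments with 1,5-AG and 4 and 10 in control, where 3 fragments correspond to 0.0626 to 0.0695 FPKM of this gene, and no difference was detectable at this depth. Ppara was not analysed here. Rxra, a partner of the receptors, had 1.98 and 1.79 FPKM with 1,5-AG and 2.61 and 2.25 FPKM in control (-0.25, adjusted p = 0.314). Of the 10 tested PPAR partners and responsive genes outside the members, 0 passed in limma or voom or at an unadjusted p under 0.05, 9 differences were negative, beside 5656 of 11120 over all tested genes, and the median was -0.06, beside -0.0025.

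In a wider set of 139 other genes of fatty acid metabolism, 115 had a row and 93 were tested. Scd1 and Cd36 rose, none fell, and 91 did not pass, beside the 1.46% of all tested genes that passed. Cd36, which takes up long-chain fatty acids and oxidised lipoproteins, had 8.29 and 9.44 FPKM with 1,5-AG and 5.33 and 4.91 FPKM in control (log2 difference 0.69, SE 0.08, adjusted p = 0.0370). Its adjusted p was 0.105 and 0.137 on dropping 1,5-AG replicate 1 or 2, and at 0.120 and 0.148 on dropping control replicate 1 or 2. With voom, 6 of the 93 were higher, beside 404 of all 11056 genes in that fit (3.65%). Besides Scd1 and Cd36, and named after their values were seen, the higher ones were Hacd2, an elongation dehydratase, Lpcat3, which places polyunsaturated chains in phospholipids, Lipa, the lysosomal acid lipase, and Nadk2, the mitochondrial NAD kinase. Nadk2 had 1.95 and 1.76 FPKM with 1,5-AG and 0.683 and 1.505 FPKM in control, with adjusted p = 0.331 in limma. Its voom difference of 0.85 was 0.30 without control replicate 1 (adjusted p = 0.440). With 1 library left out of voom, the log2 difference was 0.45 to 0.52 for Scd1 and 0.70 to 0.88 for Cd36. Lpcat3 ranged from 0.19 to 0.34, Nadk2 from 0.30 to 1.43, Lipa from 0.085 to 0.18 and Hacd2 from 0.29 to 0.41. The calls of Lpcat3, Nadk2 and Lipa were lost in some of these fits and that of Hacd2 in each. For the reason given above, a call kept in these fits is not a stricter check.

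Over all tested genes the median was -0.0025, with 5656 of 11120 negative and 5464 positive, which is the background for each list. At an unadjusted p under 0.05 in limma, 18.2% of all tested genes differed, 9.15% higher and 9.04% lower. With voom, 3.65% of all genes were higher. The 17 tested genes of peroxisomal oxidation had a median of -0.07, 13 of 17 negative, and summed over the 18 with a row to 237 and 238 FPKM with 1,5-AG and 257 and 256 FPKM in control. None of them passed in limma, and 2 were lower at an unadjusted p under 0.05. The 8 genes of mitochondrial fatty acid synthesis had a median of 0.07 with 6 positive, and the 6 tested partners of the elongation cycle a median of 0.09 with 4 positive. None of these 14 passed in limma, and 1 of them, Hacd2, passed with voom. At an unadjusted p under 0.05, 0 genes of mitochondrial synthesis and 2 elongation partners were higher and 0 lower. The 17 other genes of mitochondrial oxidation had a median of -0.03 and 0 calls in limma, with 2 higher and 1 lower at an unadjusted p under 0.05 and 1 higher with voom.

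The 18 tested genes of substrate supply and control of synthesis had a median of -0.02 and 0 calls in limma or voom, with 1 higher at an unadjusted p under 0.05. Srebf1, the sterol-regulated factor that drives fatty acid synthesis genes, had 43.8 and 40.9 FPKM with 1,5-AG and 40.5 and 36.3 FPKM in control, apart by little (0.14, adjusted p = 0.368). Nr1h3, which encodes LXR alpha, had 1.82 and 1.71 FPKM with 1,5-AG and 1.78 and 2.23 FPKM in control, which overlapped (-0.12, adjusted p = 0.671). Acly, the enzyme that supplies cytosolic acetyl-CoA, was among the 6 most abundant of the wider set and averaged 80.9 ± 0.686 FPKM with 1,5-AG and 84.7 ± 1.27 FPKM in control (SD, n = 2 each). Ucp2, Lipa, Dbi, Cyb5b and Tecr were the others, at means over the 4 libraries of 99.0, 84.8, 84.3, 71.7 and 70.1 FPKM, and none of these 6 passed in limma.

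**Figure D4:**
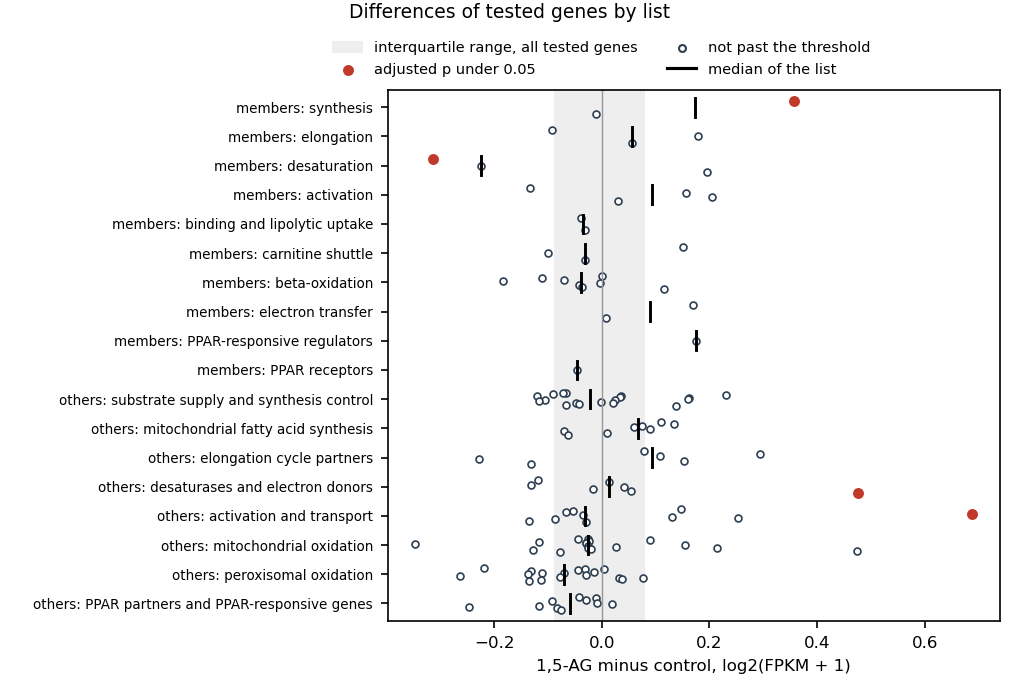
Log2 difference (1,5-AG minus control, log2(FPKM + 1)) of each tested gene in the member steps and in the other lists, with filled points for an adjusted p under 0.05, a black bar at each list's median and a grey band for the interquartile range of all tested genes. Cd36 at 0.69, Scd1 at 0.48, Acaca at 0.36 and Fads1 at -0.31 are the filled points, and the list medians lie between -0.23 and 0.17.

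**Figure D5:**
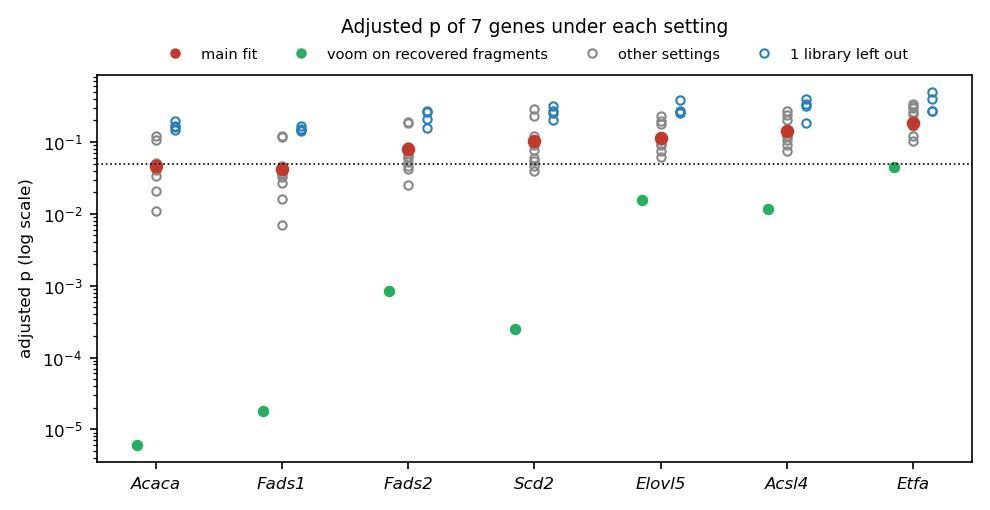
Adjusted p on a log axis of the 7 members that passed with voom, with the dotted line at 0.05. Points are the main limma fit, voom, limma with 1 library left out, and the other settings. Voom with 1 library left out is not drawn. Acaca and Fads1 lie just under the line in the main fit. The points of limma with 1 library left out lie above the line.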

How the data were processed

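The 4 libraries of RAW264.7 RNA were made with a stranded mRNA kit, per the labels' protocols. The deposited values are FPKM, made by the authors with Trimmomatic, HISAT2, Cufflinks and HTSeq on mm10, per the submitters' processing notes; the sources used here do not give versions, roles, strand setting or annotation release. Identifiers were matched to GENCODE M21 (21508 matched, 15 did not), and of rows sharing a symbol the highest was kept. Multiplied by merged exon length, 99.4% of matched genes came out as whole fragments in all 4 libraries within 0.02 fragments. FPKM is a share of each library, and reads from near-identical gene copies may be misassigned.

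Differences, 1,5-AG minus control, were computed on log2(FPKM + 1) with limma (version 3.58.1, under R 4.3.3), with a variance trend, for the 11120 genes with a mean of at least 1 FPKM, two-sided, with Benjamini-Hochberg adjustment over all of them and a threshold of 0.05; the scale understates changes of low genes. The fit was checked on simulated data, with pass criteria set only for large changes and for unchanged genes. The simulated spread was not estimated from these libraries, so the check does not bear on the calls made here. An exact permutation test of 2 against 2 libraries cannot go below 0.333, so single-gene evidence rests on pooled variance. Members, lists and naming rule (all members; other listed genes that passed, the 6 most abundant, and Scd1, Srebf1, Nr1h3, Ppara, Rxra and Cd36) were chosen with earlier results of these data known. Promoter windows were searched for exact motif matches. Besides 17 alternatives, voom without each library was added after seeing the data. A result among the other listed genes is not reported here.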

Additional observations from a re-analysis of the deposited data

How the results depend on the processing

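The count of genes past the threshold, 162 in limma, became 0 without a filter on low values (where limma had no call although 2023 of the 11120 tested genes had an unadjusted p under 0.05 in the main fit), 360 at a mean of at least 5 FPKM, 5 without the variance trend, 917 with voom, 412 over protein coding genes only, 310 with the replicate block, and 2 to 10 with 1 library left out. Members past the threshold, 2 in the main fit, numbered 0 without a filter and without the trend, 1 with quantile normalization (Fads1), 4 over protein coding genes only, 4 with the replicate block (2 of which, Fads2 and Scd2, had adjusted p = 0.0610 and 0.0539 once the GC and length trend was also removed), 7 with voom and 0 in each of the 4 fits with 1 library left out. Other listed genes, 2 in the main fit, numbered 0 without a filter and without the trend, 7 with voom, 1 with the replicate block and the GC and length trend removed (Scd1), and 0 in each fit with 1 library left out. The fits with 1 library left out in these counts were limma fits. The remaining settings kept these counts within 1.5 times. The no-filter, protein coding and 5 FPKM settings change how many genes are tested, and leaving out a library assumes that the lone sample varies like the other group; apart from this the cause was not tested. Deviations of same-numbered libraries correlated at 0.0124, so the numbers are not taken to pair the libraries.

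Of 490 values of members under the alternatives, 448 kept their sign and side of the threshold, 13 lost the call, 10 gained it and 19 changed sign. No called gene changed sign. Sign changes were at differences near 0. With GC and length trends removed, with or without the block, Fasn was at 0.065 and Acadvl at 0.0024. With median-ratio scaling Acadvl was at 0.00017 and Acaa2 at 0.0035. With quantile normalization Acsl5 was at -4.79e-06. Cyb5b, which is not a member and not in these counts, was at -0.037 in that setting. With 1 library left out Fasn ranged from -0.082 to 0.062, Elovl6 from -0.015 to 0.13, Lpl from -0.066 to 0.0034, Slc25a20 from -0.14 to 0.078, Acadvl from -0.068 to 0.061, Acaa2 from -0.065 to 0.064, Etfdh from -0.062 to 0.080 and Ppard from -0.10 to 0.0065. Depth limits Pparg, Fabp4, Etfb and Acacb, which had at most 31 fragments in a library.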
